A study of Schizosaccharomyces pombe with 4 samples.

Results

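The phosphate genes of the fission yeast Schizosaccharomyces pombe and the long non-coding RNA beside pho1 were followed through a shift to 36 °C. Of the 8 genes of this set, nc-pho1, pho1, pho84, tgp1, pho4, pho7, csk1 and vtc4, matched by symbol or synonym, 7 had a spot on the array and pho1 had none, out of 4880 genes named in all. Each of the 7 had 1 spot with a value on all 4 arrays, so all 7 were among the 4771 genes tested. Channel 1 of an array held polyA RNA of a strain 30 min after the shift, and channel 2 that strain's RNA from logarithmic growth at 25 °C, both in rich YES medium. Strain JV565, with the temperature-sensitive mmi1-ts3 allele of the RNA-binding protein gene mmi1, had 2 arrays, and strain JV558, the wild type, had 2. Values are log2 ratios of 36 °C over 25 °C, centred on the median of each array, so that 0 is the response of the middle gene and 1 is a doubling relative to it. A strain difference is the mmi1-ts3 response minus the wild-type response. The strains were not hybridised against each other, so their levels at 25 °C were not compared, and nothing in the labels says that the replicates came from separate cultures.

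When phosphate is scarce, fission yeast makes an acid phosphatase (Pho1), a phosphate transporter (Pho84) and a glycerophosphodiester transporter (Tgp1), all under the transcription factor Pho7. When phosphate is plentiful, each of these genes is held down by transcription of a long non-coding RNA that starts upstream and runs across its promoter. The RNA upstream of pho1, called nc-pho1 or prt, carries the sequence motifs that Mmi1 binds, and is one of the transcripts that Mmi1 sends to the nuclear exosome during vegetative growth. The one upstream of pho84 is called prt2.

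The identity of the nc-pho1 spot is ambiguous. The array annotation assigns it to nc-pho1 (SPOM_SPNCRNA.1712), and RefSeq annotates that RNA as overlapping pho1 (SPOM_SPBP4G3.02), for which no spot is listed. Of the spots with 1 gene, 4903 are protein-coding genes, 24 pseudogenes and 3 long non-coding RNAs. The gene number of the nc-pho1 spot lies in the same numbering block as 4732 of the 4880 spotted genes. The present number of pho1 lies in a block that holds 0 spotted genes and is mostly long non-coding RNAs (5746 of 5866). Whether the spot reads nc-pho1, the pho1 messenger RNA or both cannot be told from these files, and it is called the nc-pho1 spot here.

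The nc-pho1 spot had ratios of opposite sign in the 2 strains, though neither its strain difference nor its mmi1-ts3 response passed the test below. Its log2 ratio was 1.07 and 0.28 in mmi1-ts3, against −0.76 and −0.96 in the wild type. Both mmi1-ts3 arrays lay above 0 and both wild-type arrays below it, with no overlap. The mean response was 0.68 ± 0.56 in mmi1-ts3 and −0.86 ± 0.15 in the wild type (SD, n = 2 each), or 1.60-fold and 0.551-fold. The strain difference was 1.54 ± 0.34 (SE), a response 2.90-fold above that of the wild type.

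With limma, the strain difference of the nc-pho1 spot had an unadjusted p of 0.00455 and an adjusted p of 0.998 over all genes, so it did not pass. Of the 7 members, 1, the nc-pho1 spot, had an unadjusted p under 0.05, and 0 passed after adjustment. Over all genes, 0 (0%) passed as higher and 0 (0%) as lower, and 90 (1.89%) had an unadjusted p under 0.05. The fall in the wild type passed (adjusted p = 0.0462), but not without wild-type replicate 1 (−0.96, adjusted p = 0.111) or replicate 2 (−0.76, adjusted p = 0.199). The mmi1-ts3 response did not pass (adjusted p = 0.0775). With the array set (replicate 1 or replicate 2 of both strains) as a block, the mmi1-ts3 response passed (adjusted p = 0.0312). With each spot centred on the spots around it in the table, that response was 0.82 (adjusted p = 0.0101). Both settings passed more genes for mmi1-ts3, 2169 with the block and 1867 with that centring, against 1644 in the main fit.

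The difference stood in both array sets, the one whose titles carry no code (replicate 1) and the one whose titles do (replicate 2). It was 1.83 in the uncoded set and 1.24 in the coded one, and from 1.14 to 1.93 with any 1 array left out. The 2 mmi1-ts3 arrays were 0.80 apart (log2), a gap larger than that of 89.7% of genes. The wild-type arrays were 0.21 apart and so closer to each other than the mmi1-ts3 arrays.

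**Figure D1:**
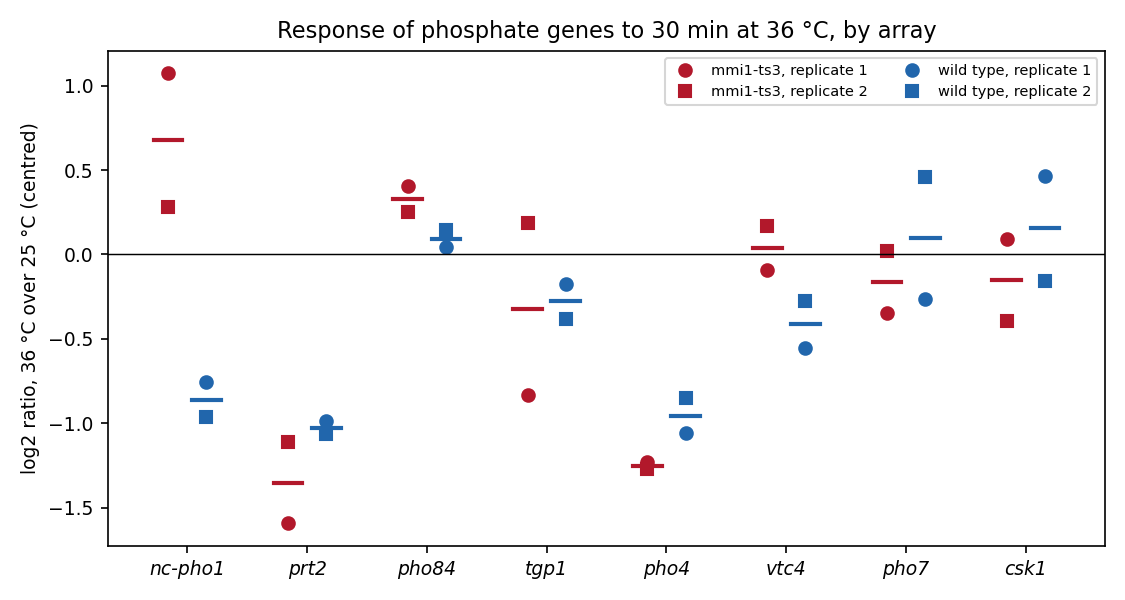
Log2 ratio of 36 °C over 25 °C (y axis) on each array for the measured members and prt2 (x axis), with mmi1-ts3 in red, left of the wild type in blue. Circles are replicate 1, squares replicate 2 and bars the means of 2 arrays; the nc-pho1 spot is the one shown with both mmi1-ts3 arrays above 0 and both wild-type arrays below it.

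Among all genes, 11 had a larger strain difference than the nc-pho1 spot. In falling order they were mug9, crs1, mug8, rec8, tht2, meu26, rec25, lsd90, tms1, mug45 and bqt1. The largest SEs among these were 1.26 (lsd90), 0.60 (meu26) and 0.54 (tms1), beside 0.34 for the nc-pho1 spot. The names mug and meu stand for meiotic up-regulation; rec8 encodes the meiotic cohesin subunit and crs1 a meiotic cyclin. Taken alone, neither response of the spot was extreme: 82.9% of genes lay below its mmi1-ts3 response and 10.9% below its wild-type response. Both mmi1-ts3 arrays were above 0 and both wild-type arrays below 0 for 44 genes (0.922%). Of these, 6 (0.126% of genes), the nc-pho1 spot included, had a difference at least as large. The pattern and the cutoff were taken from the spot's own values, so these counts describe the spot and do not test it. The reverse pattern of signs was found for 69 genes (1.45%).

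The 3 genes nearest to the nc-pho1 spot by Euclidean distance over the 4 centred arrays were mug45 (0.463), rec25 (0.745) and mug24 (1.08). The values of mug45 were 0.83 and 0.63 in mmi1-ts3, against −0.83 and −1.12 in the wild type. Those of rec25, a protein of the linear elements of meiotic chromosomes, were 1.499 and 0.60 in mmi1-ts3, against −0.32 and −1.24 in the wild type. Both had the same signs on every array as the nc-pho1 spot, which follows from their choice by distance over these arrays. For mug24 they were 0.73 and 0.76 in mmi1-ts3, against 0.15 and −0.90 in the wild type, so one wild-type array was above 0.

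**Figure D2:**
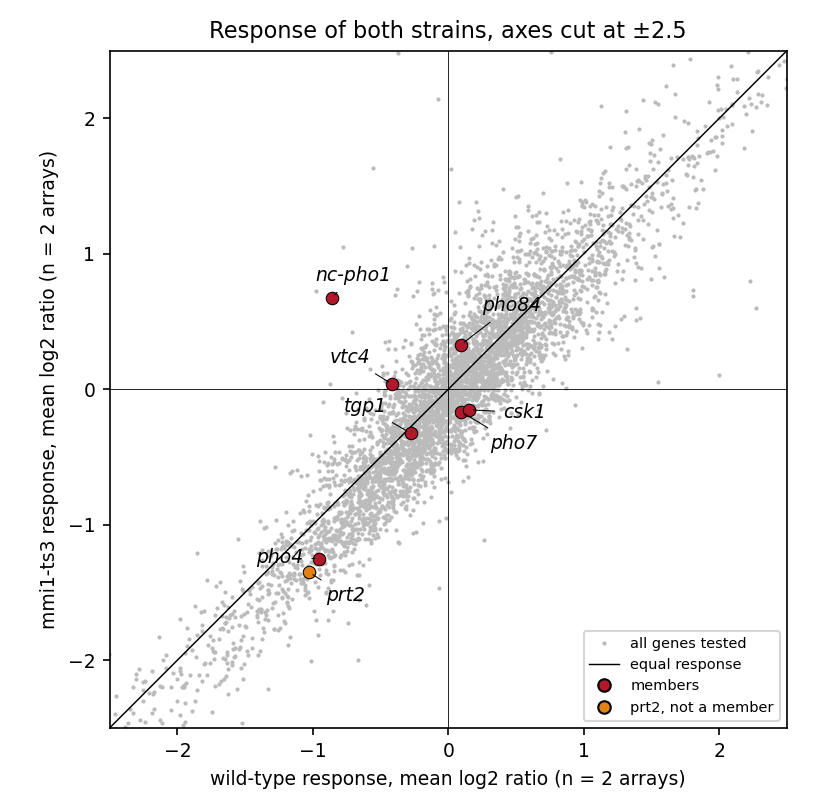
Mean response of mmi1-ts3 (y axis) against that of the wild type (x axis), both as log2 ratios of 36 °C over 25 °C from 2 arrays, with all genes tested in grey, the members in red and prt2 in orange. The axes are cut, so genes with larger responses lie outside; the nc-pho1 spot sits far above the line of equal response (0.68 against −0.86), and pho4 and prt2 lie at the lower left with falls in both strains.

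The spot of prt2, the other long non-coding RNA of this locus, fell in both strains. It is not in the set but is the nearest measured gene before pho84, with which its annotated span overlaps. Whether the prt2 spot reads prt2 alone cannot be told from the sources used here. Its log2 ratio was −1.59 and −1.11 in mmi1-ts3, against −0.99 and −1.07 in the wild type. The response was −1.35 ± 0.34 in mmi1-ts3 (adjusted p = 0.00522) and −1.03 ± 0.06 in the wild type (adjusted p = 0.0152; SD, n = 2 each). The wild-type call was lost without either wild-type array, with an adjusted p up to 0.0796. The strain difference was −0.33 ± 0.27 (SE), opposite in sign to that of the nc-pho1 spot, and did not pass; the 2 spots were not tested against each other. It was −0.61 in the uncoded set and −0.05 in the coded set.

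Of the genes that the phosphate response controls, pho84 stayed near the median gene. Its log2 ratio was 0.41 and 0.25 in mmi1-ts3, against 0.04 and 0.14 in the wild type. Both mmi1-ts3 arrays were above both wild-type arrays, but by a strain difference of only 0.24 ± 0.23 (SE), which did not pass, as neither response did (adjusted p = 0.178 in mmi1-ts3 and 0.709 in the wild type). By array set the difference was 0.36 (uncoded) and 0.11 (coded).

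The transcript of tgp1 gave no repeatable difference. Its log2 ratio was −0.83 and 0.19 in mmi1-ts3, against −0.18 and −0.38 in the wild type. One mmi1-ts3 array lay below both wild-type arrays and the other above both. The gap of 1.02 between the mmi1-ts3 arrays was larger than that of 94.9% of genes. The strain difference was −0.05 ± 0.39 (SE), made of −0.66 (uncoded set) and 0.57 (coded set).

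Neighbouring genes give the local setting. On the far side of pho1, the nearest measured gene is fub2, with 0.73 and 0.84 in mmi1-ts3, against 0.05 and 1.07 in the wild type. Its arrays overlapped between strains, and its strain difference was 0.22 ± 0.38 (SE). Next to tgp1 and overlapping it in the annotation, SPOM_SPBC1271.10C fell in both strains, with −1.49 in mmi1-ts3 (adjusted p = 0.00313) and −0.90 in the wild type (adjusted p = 0.0173, and 0.0949 without wild-type replicate 1). The other neighbour, SPOM_SPBC1271.08C, had a strain difference of −0.10 ± 0.47 (SE). None of these neighbours passed for the strain difference.

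The largest falls among the members were those of pho4, in both strains. In fission yeast pho4 encodes an acid phosphatase that is repressed by thiamine, unlike the budding yeast transcription factor of that name. Its log2 ratio was −1.23 and −1.27 in mmi1-ts3, against −1.06 and −0.85 in the wild type. All 4 arrays were far below 0, and both mmi1-ts3 arrays were below both wild-type arrays. It fell to 0.420-fold in mmi1-ts3 (−1.25 ± 0.03 SD, adjusted p = 0.00438) and to 0.516-fold in the wild type (−0.96 ± 0.15 SD, adjusted p = 0.0124, and 0.0679 without wild-type replicate 1). The strain difference was −0.30 ± 0.24 (SE) and did not pass.

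The gene vtc4, which encodes the polymerase subunit of the vacuolar complex that makes polyphosphate, was somewhat higher in mmi1-ts3 on every comparison of arrays. Its log2 ratio was −0.09 and 0.17 in mmi1-ts3, against −0.55 and −0.28 in the wild type. The strain difference was 0.45 ± 0.25 (SE), with 0.46 (uncoded set) and 0.44 (coded set), and an unadjusted p of 0.130. Larger differences were found for 244 genes. Neither response passed (adjusted p = 0.888 in mmi1-ts3 and 0.144 in the wild type).

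Both regulators in the set varied as much within a strain as between strains. For pho7, the zinc-cluster activator of pho1, pho84 and tgp1, the log2 ratio was −0.35 and 0.02 in mmi1-ts3, against −0.27 and 0.46 in the wild type. For csk1, a kinase that activates cyclin-dependent kinases and represses Pho1, it was 0.09 and −0.39 in mmi1-ts3, against 0.47 and −0.16 in the wild type. The arrays of the strains overlapped for both genes. The strain differences were −0.26 ± 0.33 for pho7 and −0.31 ± 0.33 for csk1 (SE), and neither gene's response passed in either strain.

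Across the 7 measured members, 3 had both mmi1-ts3 arrays above both wild-type arrays (the nc-pho1 spot, pho84 and vtc4), 1 had both below (pho4) and 3 overlapped. Over all genes, 9.31% were separated upward and 20.4% downward. The members' median strain difference was −0.05, beside −0.07 over all genes. In mmi1-ts3, 1 member fell (pho4) and 0 rose, where 19.6% of all genes fell and 14.9% rose. In the wild type, 2 fell (the nc-pho1 spot and pho4) and 0 rose, where 14.5% fell and 13.5% rose. At an unadjusted p under 0.05 there were 2 members in each strain, where 46.2% of all genes were in mmi1-ts3 and 41.6% in the wild type.

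**Figure D3:**
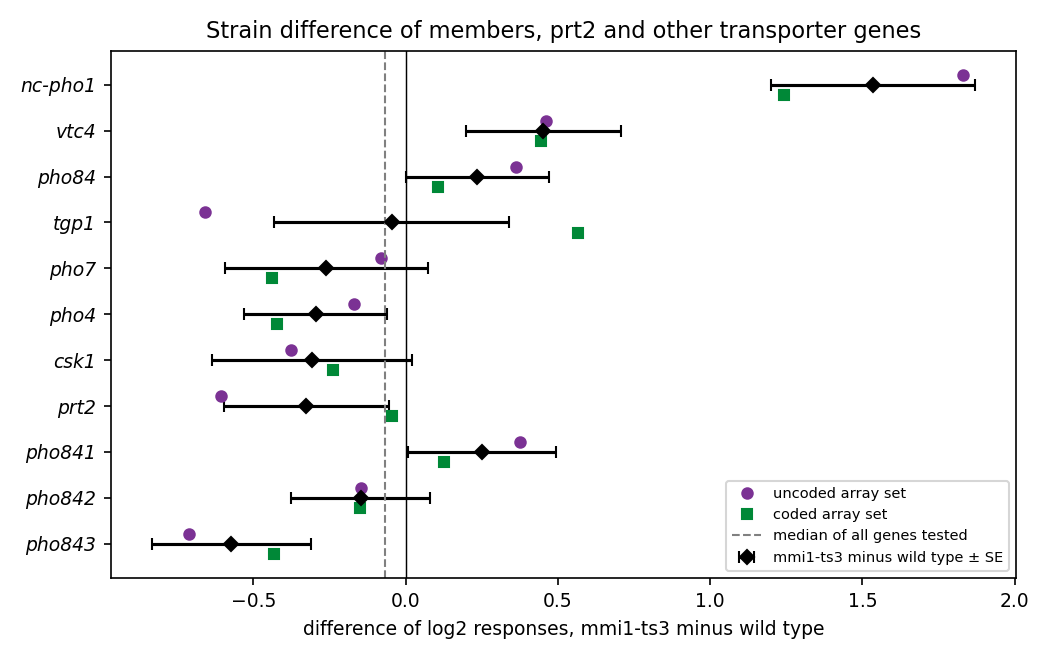
Strain difference (x axis, log2, mmi1-ts3 minus wild type) of the measured members, prt2 and 3 other phosphate transporter genes, with diamonds and bars for the fitted value ± SE and circles and squares for the uncoded and coded array sets. The nc-pho1 spot lies at 1.54, and the other genes shown lie between −0.57 and 0.45; the sets fall on opposite sides of 0 for tgp1.

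Of the other phosphate transporter genes, pho842 and pho841 were above 0 on every array and pho843 was below 0. They were not tested against each other. The transcript of pho842 rose in both strains, with 1.84 and 1.90 in mmi1-ts3 and 1.99 and 2.05 in the wild type, or 3.66-fold and 4.06-fold (adjusted p = 0.00139 and 0.00146 by strain). Its strain difference was −0.15 ± 0.23 (SE). The transcript of pho843 fell in mmi1-ts3, with −1.29 and −0.89 there against −0.58 and −0.45 in the wild type (adjusted p = 0.00886 and 0.0903 by strain, and 0.0936 for mmi1-ts3 without its replicate 1). Its strain difference of −0.57 ± 0.26 (SE) did not pass. The transcript of pho841, which was added after its values were seen, had 0.92 and 0.64 in mmi1-ts3 and 0.55 and 0.51 in the wild type, and rose in mmi1-ts3 (adjusted p = 0.0201, and up to 0.224 without either of its arrays).

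Phosphate acquisition and polyphosphate had 12 other measured genes. Of these, 2 rose and 3 fell in mmi1-ts3, where 14.9% and 19.6% of all genes did. In the wild type 2 rose and 2 fell, where 13.5% and 14.5% of all genes did. Besides pho842 and pho843, pho8, the vacuolar alkaline phosphatase, rose by 0.92 in mmi1-ts3 and 0.93 in the wild type. The transcript of vtc2, another subunit of the polyphosphate complex, was at −0.82 and −0.33 in mmi1-ts3, against −1.26 and −1.29 in the wild type. It fell in the wild type (−1.28, adjusted p = 0.00773), and its strain difference of 0.70 ± 0.27 (SE) had the only unadjusted p under 0.05 of this list (0.0441). The nrf1 transcript, of a further subunit also called Vtc1, was at 0.10 and −0.07 in mmi1-ts3, against −0.16 and −0.35 in the wild type. Its strain difference was 0.27 ± 0.24 (SE). The transcript of ppx1, the exopolyphosphatase, fell in mmi1-ts3 (−0.93, adjusted p = 0.0424, and 0.300 without mmi1-ts3 replicate 2), and its strain difference was −0.65 ± 0.37 (SE) with overlapping arrays. The list was matched by name and holds gda1, a Golgi nucleoside diphosphatase (−1.11 in mmi1-ts3 and −0.91 in the wild type), and git1, a gene of glucose sensing. In the list as a whole, 9 of the 12 strain differences were negative, 2 genes had both mmi1-ts3 arrays above both wild-type arrays and 3 had both below, where 9.31% and 20.4% of all genes did. Its median strain difference was −0.16, with −0.10 and −0.13 by array set, uncoded first, and −0.24 to −0.03 with 1 array left out.

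Inositol pyrophosphates are the signals that couple phosphate status to termination of the upstream RNAs. Of 8 measured genes of this signalling, 1 rose and 1 fell in each strain, and the median strain difference was 0.07. Among all genes, 14.9% rose and 19.6% fell in mmi1-ts3, and 13.5% rose and 14.5% fell in the wild type. In mmi1-ts3, aps1, an inositol pyrophosphate hydrolase, fell (−1.35, adjusted p = 0.0352, and 0.239 without mmi1-ts3 replicate 2), with single arrays at −0.69 and −2.01. In the wild type, kcs1, an inositol phosphate kinase, fell (−0.94, adjusted p = 0.0282), a call lost with either wild-type array left out. The phospholipase C gene plc1 rose by 0.90 in mmi1-ts3 and by 0.75 in the wild type. Both calls of plc1 were lost with either array of the strain concerned left out. The strain difference of asp1, the kinase and pyrophosphatase that sets the level of these signals, was 0.32 ± 0.36 (SE). That of siw14, a pyrophosphatase, was 0.23 ± 0.23 (SE), and that of pqr1, a phosphate-sensing ubiquitin ligase also called Spx1, was −0.20 ± 0.28 (SE).

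The factors that cleave and terminate transcripts decide where the upstream RNAs end. Their list was matched by name, and its clp1 may be a gene other than the cleavage factor. Of 21 measured, 0 rose and 3 fell in mmi1-ts3, where 14.9% and 19.6% of all genes did. In the wild type 2 rose and 2 fell, where 13.5% and 14.5% of all genes did. The polyadenylation factor gene fip1 fell most, to −2.44 in mmi1-ts3 and −2.27 in the wild type (adjusted p = 0.00362 and 0.00522 by strain). The gene of Seb1, an RNA-binding termination factor, fell to −1.61 in mmi1-ts3 and −1.30 in the wild type. The phosphatase gene dis2 fell in mmi1-ts3 (−0.79), and the yth1 transcript rose in the wild type (0.74). The largest strain differences were 0.42 ± 0.31 for rhn1, a termination factor, −0.37 ± 0.26 for dis2, −0.37 ± 0.27 for cft1 and −0.32 ± 0.32 for ysh1 (SE), the cleavage nuclease; none passed. The median strain difference was −0.17, and −0.05 and −0.06 in the sets. With 1 array left out it ran to −0.013, the value without mmi1-ts3 replicate 2.

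Csk1 acts on kinases that also phosphorylate the tail of RNA polymerase II. Of 12 measured genes of these kinases and their partners, 0 rose and 0 fell in either strain. Among all genes, 14.9% rose and 19.6% fell in mmi1-ts3, and 13.5% rose and 14.5% fell in the wild type. At an unadjusted limma p under 0.05 there were 2 in mmi1-ts3 and 1 in the wild type, where 46.2% and 41.6% of all genes were. Of the strain differences 10 were negative, with a median of −0.25, where 60.8% of all genes were negative and the median was −0.07. The list's median was −0.04 without wild-type replicate 1 and −0.08 without mmi1-ts3 replicate 2. They were −0.46 ± 0.33 for fcp1, the phosphatase of the polymerase tail, −0.45 ± 0.33 for mcs2 and −0.32 ± 0.31 for mcs6 (SE), the cyclin and kinase of the CDK-activating complex, and −0.34 ± 0.25 for lsk1.

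In mmi1-ts3, 1 of 15 measured genes of the Mmi1 elimination machinery rose and 4 fell, where 14.9% and 19.6% of all genes did. In the wild type 0 rose and 1 fell, where 13.5% and 14.5% of all genes did. The helicase gene mtl1 was at −0.98 and −1.29 in mmi1-ts3, against −0.42 and −0.31 in the wild type. It fell in mmi1-ts3 (−1.13, adjusted p = 0.0067), and its strain difference of −0.77 ± 0.25 (SE) had an unadjusted p of 0.0236, the only one of this list under 0.05. The nuclear poly(A)-binding protein gene pab2 fell in mmi1-ts3 (−1.11, adjusted p = 0.00868), and rmn1 fell to −1.11 in mmi1-ts3 and −1.55 in the wild type. The red5 transcript rose in mmi1-ts3 (0.93). Each of these mmi1-ts3 calls was lost without mmi1-ts3 replicate 2. The mmi1 transcript differed by 0.06 ± 0.46 (SE) between the strains, which does not check the labels, since a temperature-sensitive allele need not change the transcript.

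Genes of thiamine synthesis and uptake were set beside pho4. This list too was matched by name, and its car1, an entry apart from bsu1, may not be a thiamine gene. Of 9 measured, 0 rose and 3 fell in mmi1-ts3, where 14.9% and 19.6% of all genes did. In the wild type 0 rose and 2 fell, where 13.5% and 14.5% of all genes did. The gene of the thiamine transcription factor Thi1 fell to −0.86 in mmi1-ts3 and −0.77 in the wild type. The bsu1 transcript, for a vitamin transporter, fell to −0.71 in mmi1-ts3 and −0.90 in the wild type, and the thi9 transcript, for the thiamine transporter, fell in mmi1-ts3 (−0.66). All of these calls on thi1, bsu1 and thi9 were lost with either array of the strain concerned left out. The thiamine-repressed gene nmt1 was at 0.39 and 0.54 in mmi1-ts3, against 0.02 and 0.27 in the wild type, and did not share the falls of pho4. The median strain difference was −0.04, and it ran from −0.15 to 0.34 with 1 array left out.

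Over the 6 lists, 31 calls were made on single-strain responses, and 23 of them were lost when some array was left out. The 8 kept were those of pho842 and fip1 in both strains, vtc2 and rmn1 in the wild type, and gda1 and seb1 in mmi1-ts3.

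**Figure D4:**
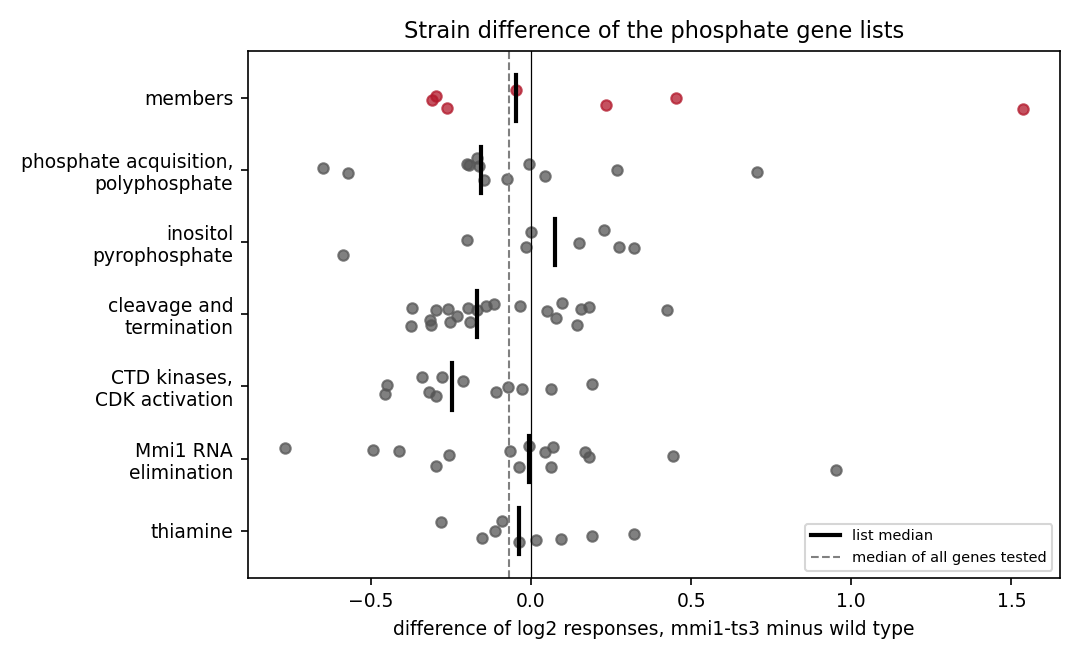
Strain difference (x axis, log2, mmi1-ts3 minus wild type) of the 7 measured members and of the 6 lists of related genes, 1 point a gene, with thick bars at list medians and a dashed line at the median of all genes tested (−0.07). The nc-pho1 spot at 1.54 is the rightmost point, followed by mei2 of the Mmi1 list at 0.95.

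For pho84, the 3 nearest genes by the same distance were sec63 (0.125), SPOM_SPAC17A5.05C (0.135) and csc4 (0.160). For tgp1 they were sfc3 (0.243), ght7 (0.283) and pop100 (0.286). Neither set has a member of the phosphate lists.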

How the data were processed

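PolyA RNA was labelled with an oligo-dT primer and hybridised on 4 arrays of 2 channels, per the labels' protocols. The deposited values are log2 ratios as read from their range (base 10 could reach only 4.82 on a 16-bit scanner, and the highest value was 7.81); natural logs remain possible. The authors' background correction, normalization and dye handling are not given in the sources used here. The direction was read from heat shock genes (hsp16, hsp104 and ssa1 were between 1.86 and 7.74 on every array), so it is likely rather than stated. The labels name Cy5 and Cy3 for the same channel.

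Of 5188 spots, 4933 carry 1 gene, 1 several and 254 none. Between 4 and 67 spots an array lacked a value. Gene names came from the platform annotation, updated by gene number through RefSeq (ASM294v3, names and neighbours only; 4930 matched). Spots of a gene were averaged, and the median of the 4771 genes with 4 values (−0.10 to 0.10) was subtracted from each array.

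Each strain's response and the strain difference were fitted by limma 3.58.1 (R 4.3.3) for all 4 arrays together, with no block (2 residual and 3.56 prior degrees of freedom, Benjamini-Hochberg, adjusted p under 0.05). The procedure was tested on simulated data with the same spread for every gene and a shift larger than the nc-pho1 difference. That test therefore does not show the power for a difference of that size. The smallest p of an exact permutation test with 2 arrays a strain is 0.333, and none was run; the number of arrays limits precision, and p-values may measure technical spread alone. The members and lists were chosen with earlier results of these data known. Named were all members, the list genes past the test for the strain difference, up to 4 of each list with the largest strain difference and up to 4 with the largest mean response, the 3 nearest genes by profile, the measured neighbours, and a few others chosen after their values were seen. Alternatives covered centring, scaling, genes kept, variance model, array set, log base and each array left out. No sequences are shown.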

Additional observations from a re-analysis of the deposited data

Results flagged for a closer look

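Both mmi1-ts3 arrays moved one way and both wild-type arrays the other for 8 of the genes named. The difference was tested with limma and did not pass over all genes for any of them. For mug9, crs1 and tht2, named for having larger differences than the nc-pho1 spot, it was 2.85, 2.76 and 2.19 (adjusted p = 0.254, 0.254 and 0.682). The nc-pho1 spot had a strain difference of 1.54 (adjusted p = 0.998). For mug45 it was 1.70 (adjusted p = 0.551) and for rec25 1.83 (adjusted p = 0.998); both are named because their profiles lie nearest to that of the nc-pho1 spot, so their sharing of its signs follows from the choice. For mei2, the meiotic regulator that captures Mmi1, it was 0.95 (adjusted p = 0.998), with 0.17 and 1.21 in mmi1-ts3, against −0.09 and −0.44 in the wild type. For siw14 it was 0.23 (adjusted p = 0.998), with 0.06 and 0.14 in mmi1-ts3, against −0.10 and −0.17 in the wild type, all close to 0. Over all genes, 44 (0.922%) had both mmi1-ts3 arrays above 0 and both wild-type arrays below 0, and 69 (1.45%) the reverse.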

How the results depend on the processing

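The number of members past the test for the strain difference was 0 under all 12 alternatives. For the mmi1-ts3 response it was 1. The replicate block on array set and running-median centring each gave 2, the nc-pho1 spot being added in both. Those 2 settings passed 2169 and 1867 genes in all for that response, against 1644 in the main fit. For the wild-type response it was 2, and 0 to 2 with 1 array left out. The strain difference of the nc-pho1 spot stayed positive under all 12, from 1.14 to 1.93 with 1 array left out, 1.67 with running-median centring (adjusted p = 0.154), 1.54 in the block (adjusted p = 0.626) and 2.22 read as natural logs. Its mmi1-ts3 response ran from 0.28 to 1.07. Signs turned for values as far from 0 in the main fit as −0.32 (the mmi1-ts3 response of tgp1) and −0.31 (the strain difference of csk1). Without centring the difference of tgp1 was 0.02. With running-median centring the wild-type responses of pho84 and tgp1 were −0.24 and 0.073, and the mmi1-ts3 responses of csk1 and vtc4 0.21 and −0.15; the wild-type fall of vtc4 then passed (−0.71). With 1 array left out, the strain differences ran from −0.56 to 0.46 for tgp1, −0.62 to 0.10 for pho7 and −0.62 to 0.0035 for csk1. The mmi1-ts3 responses ran from −0.84 to 0.19 for tgp1, −0.35 to 0.018 for pho7, −0.39 to 0.09 for csk1 and −0.10 to 0.17 for vtc4, and the wild-type responses from −0.27 to 0.46 for pho7 and −0.16 to 0.47 for csk1. Over all genes, mug9, crs1 and mug8 passed for the strain difference with running-median centring, against 0 otherwise. Genes past the test numbered 887 and 902 for mmi1-ts3 without its own arrays, against 1644, and 672 and 852 for the wild type without its own, against 1336. All 6 list medians moved by over 1.5 times with 1 array left out: phosphate acquisition ran from −0.24 to −0.03, cleavage factors from −0.17 to −0.01, CTD kinases from −0.30 to −0.04, the Mmi1 machinery from −0.15 to 0.05, inositol pyrophosphate genes from −0.03 to 0.20 and thiamine genes from −0.15 to 0.34. The cause of these changes was not tested.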

Other observations

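The third long non-coding RNA on the array, adh1AS, which lies antisense to the alcohol dehydrogenase gene adh1, had 0.15 and 0.73 in mmi1-ts3, against 0.16 and −0.19 in the wild type. The strands overlap, and the labels do not say whether its spot reads one strand. Its strain difference did not pass (adjusted p = 0.998), and 240 genes had a larger one.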
